A study of Mus musculus with 2 samples.

Results

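Ring1B binding was described at the genes that make, break down and sense retinoic acid, the signalling form of vitamin A. The genes were chosen by name, with earlier results of these data known. They were the breakdown enzymes Cyp26a1, Cyp26b1 and Cyp26c1, the synthesis enzymes Aldh1a1, Aldh1a2 and Aldh1a3, and the receptors Rara, Rarb and Rarg. Of these 9 genes, 7 were measured by at least 3 probes, out of 16909 genes measured in all. They had 298 of 474222 usable probes. No probe carried the name Cyp26c1 or Aldh1a2, and these genes were not analysed here.

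The cells were embryonic stem (ES) cells of the mouse, and the assay was ChIP-chip, in which DNA recovered with an antibody is hybridised to a tiling array of promoters beside input DNA. Formaldehyde-fixed chromatin was immunoprecipitated with a monoclonal antibody to Ring1B, and the recovered DNA was amplified by linker-mediated PCR and labelled with Cy5. Input DNA, taken from the whole cell extract without the antibody, was treated the same way and labelled with Cy3. The dyes ran the same way on both arrays, and neither a dye swap nor a mock immunoprecipitation was among the samples used here. The labels named no ES cell line, strain, genotype or treatment.

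The 2 arrays were the 2 slides of 1 promoter set and shared 0 probes. No promoter had a second measurement, so no value below carries a test or a p-value. Cyp26b1 and Aldh1a3 lay on slide 1 and the other 5 genes on slide 2. The input signal was well above background at 74.1% and 76.3% of the probes of slides 1 and 2, and the immunoprecipitated signal at 77.2% and 80.6%. Precision is limited by the number of arrays. In the labels, source names start with the word Muscle while sample titles say ES cells. An array of promoter DNA shows binding and not RNA, so the cell type could not be checked by expression. Ring1B values were below 1 at 5 of 5 ES cell marker genes (median -0.04) and at 5 of 5 skeletal muscle marker genes (median -0.14), but only 1.99% of all genes reached 1, so these counts do not tell the cell types apart.

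Retinoic acid is made from retinaldehyde by the ALDH1A dehydrogenases and is oxidised to inactive products by the CYP26 enzymes, which are cytochromes P450. It acts through the retinoic acid receptors, nuclear receptors that bind DNA with a retinoid X receptor at response elements made of repeated half-sites. ES cells treated with retinoic acid leave the pluripotent state and differentiate. Ring1B, encoded by Rnf2, is the ubiquitin ligase of Polycomb repressive complex 1, which marks histone H2A at silenced developmental genes.

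Promoter sequences of the genes were read from RefSeq (build GRCm38.p6), which held entries for 6 of the 7 measured genes. The array's own coordinates come from another build, not given in the sources used here, and probes were placed in the RefSeq promoters by sequence and not by position. The promoters of Cyp26a1 (chr19:37697558-37697807, plus strand) and Rarb (chr14:16575477-16575726, minus strand) are shown because both hold a retinoic acid response element and both had Ring1B signal near the start. The promoter of Cyp26b1 (chr6:84593811-84594060, minus strand) is shown for contrast. Each is the run of 250 bases upstream of the start, 5′ to 3′, with the response element in capitals.
Cyp26a1: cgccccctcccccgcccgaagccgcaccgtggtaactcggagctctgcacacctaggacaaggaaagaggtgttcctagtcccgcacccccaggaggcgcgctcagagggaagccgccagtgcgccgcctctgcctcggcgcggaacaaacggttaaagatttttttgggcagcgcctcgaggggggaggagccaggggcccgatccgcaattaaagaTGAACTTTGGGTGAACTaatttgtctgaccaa
Rarb: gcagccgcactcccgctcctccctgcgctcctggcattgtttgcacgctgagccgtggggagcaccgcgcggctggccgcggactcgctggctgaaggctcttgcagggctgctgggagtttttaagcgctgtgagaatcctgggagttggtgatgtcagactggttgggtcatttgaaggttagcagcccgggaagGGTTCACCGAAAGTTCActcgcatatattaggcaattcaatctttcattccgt
Cyp26b1: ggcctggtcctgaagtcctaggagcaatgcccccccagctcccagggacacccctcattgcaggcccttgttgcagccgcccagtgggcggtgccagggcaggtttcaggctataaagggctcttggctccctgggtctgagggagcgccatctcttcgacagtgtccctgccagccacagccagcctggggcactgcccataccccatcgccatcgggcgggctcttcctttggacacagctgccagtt

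The DNA element searched was a direct repeat of 2 half-sites spaced by 5 bases (DR5). Each half-site could be AGGTCA, or AGTTCA, or GGGTCA, or GGTTCA, and both strands were read. Cyp26a1 holds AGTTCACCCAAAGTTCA on the strand opposite to the gene, 32 bp upstream of the start. Rarb holds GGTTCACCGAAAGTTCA on the strand of the gene, 53 bp upstream. Of 32851 RefSeq promoters of the same length, 29 (0.0883%) hold such a repeat. No other promoter entry of the measured genes holds one in this window. CG dinucleotides numbered 20 in the Cyp26a1 window, 16 in that of Rarb and 7 in that of Cyp26b1, against a median of 6 over all promoters. These matches describe the letters and were not measured as receptor sites.

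Some probes lay in these promoters and measured the same DNA. Those nearest the response elements are shown. For each other gene the probe shown is the nearest upstream of a start set from the array's probes, which can differ from the RefSeq start. Sequences run 5′ to 3′ on the gene's strand for Cyp26a1 and Rarb and as the array lists them for the others. The DR5 is in capitals.
Cyp26a1 probe over the response element: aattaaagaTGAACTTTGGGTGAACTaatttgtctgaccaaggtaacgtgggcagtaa
Rarb probe upstream of the response element: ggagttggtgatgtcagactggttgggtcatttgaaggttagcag
Aldh1a3 probe: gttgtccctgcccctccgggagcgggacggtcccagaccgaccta
Aldh1a1 probe: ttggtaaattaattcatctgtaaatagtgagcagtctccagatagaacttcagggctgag
Cyp26b1 probe: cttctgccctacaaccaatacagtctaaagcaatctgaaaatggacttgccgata
Rarg probe: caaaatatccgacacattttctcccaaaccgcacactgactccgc
Rara probe: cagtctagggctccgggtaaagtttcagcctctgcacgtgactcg

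The Cyp26a1 probe spans -41 to 16 bp from the RefSeq start and carries the whole element. It gave a log2 ratio of 1.21, from a Cy5 signal of 3751 and a Cy3 signal of 1453. The other probe in the Cyp26a1 promoter, at -218 to -173 bp, gave 0.40. The Rarb probe spans -107 to -63 bp, just upstream of the element, and gave 1.74 from signals of 6938 and 1860. The probes shown for Aldh1a3 and Aldh1a1 gave 1.46 and 1.25. Those of Cyp26b1, Rarg and Rara gave 0.62, -0.02 and -1.52. The Cyp26b1 probe lies outside the promoter shown, and the probe inside it, at -148 to -104 bp, gave -0.87. The probe over or next to the response element was above 1 at both genes that hold one, and 21.7% of all slide 2 probes were at or above 1. These promoters were shown in part for their signal near the start, so a link between the element and Ring1B was not tested. Single probes scatter widely, as the pair in the Cyp26a1 promoter shows, and values over whole genes are given next.

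Values are on the log2 scale, immunoprecipitated over input signal, with the median probe of the slide at 0. On slides 1 and 2, 17.7% and 21.7% of all probes were at or above 1, and 20.4% and 20.9% were at or below -1. Distances from here on are from a start set from the array's probes, which can differ from the RefSeq start used above. The value of a gene is the mean over its probes, with the SD over those probes, which are neighbouring measurements on 1 array and not replicates. A value of 1, which is 2-fold over the median probe, served as the threshold, and 337 of 16909 genes (1.99%) reached it. Of the 7 measured retinoic acid genes, 1 did (14.3%), and this was Cyp26a1. At a threshold of 0.5, Rarb was added, so that 2 of 7 passed, beside 7.62% of all genes. At the low end, 1.86% of all genes and none of the 7 stood at or below -1, and 3 of the 7 lay below 0, beside 60.8%. The median of the 7 genes was 0.05, beside -0.10 for all genes.

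Cyp26a1, the breakdown enzyme best known as a gene switched on by retinoic acid itself, had the highest value of the 7. Its 44 probes (chromosome 19, 37393131 to 37401059 in the array's coordinates) ranged from -0.82 through a median of 1.63 to 3.74. The mean was 1.61 ± 1.09 (SD over probes), 3.05-fold over the median probe. Of the 44 probes, 41 were above 0, 30 were at or above 1 (68.2%, beside 21.7% of all slide 2 probes) and none was at or below -1. Among the 6822 genes of slide 2 with at least 20 probes it was at rank 40, above 99.4% of them; of the genes with that many probes on either slide, 2.13% reached 1. Its signal was well above background at 44 of 44 probes in the immunoprecipitated channel and at 43 in the input, so its values do not rest on dim probes.

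The signal at Cyp26a1 was not even along the gene. The 13 probes inside the gene averaged 2.32 ± 0.67 and the 31 upstream probes 1.31 ± 1.10. Within 1000 bp of the start the mean was 2.27 ± 0.97 over 12 probes, and beyond it was 1.36 over 32. Both sides of the start carried the signal, which was higher inside the gene than further upstream.

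A raised stretch was called where 3 or more consecutive probes had a running mean, over probes within 500 bp on either side, of 1 or more, and a lowered one at -1 or less. Cyp26a1 had a pair of them. The longer covered 3742 bp, from -1592 to 2094 bp around the start (37397001 to 37400742), with 22 probes and a mean of 2.19. The other covered 2054 bp, from -5233 to -3231 bp, with 13 probes and a mean of 1.33. Between them lay a dip where consecutive probes, at -2311, -2160 and -2016 bp, gave -0.82, -0.20 and -0.29. The input signal was 4964 and 9672 at the outer ones of these probes, so the dip was not at dim probes. Raised stretches this long (2000 bp or more) occurred at 3.09% of all genes and, among the 7, at Cyp26a1 alone.

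**Figure D1:**
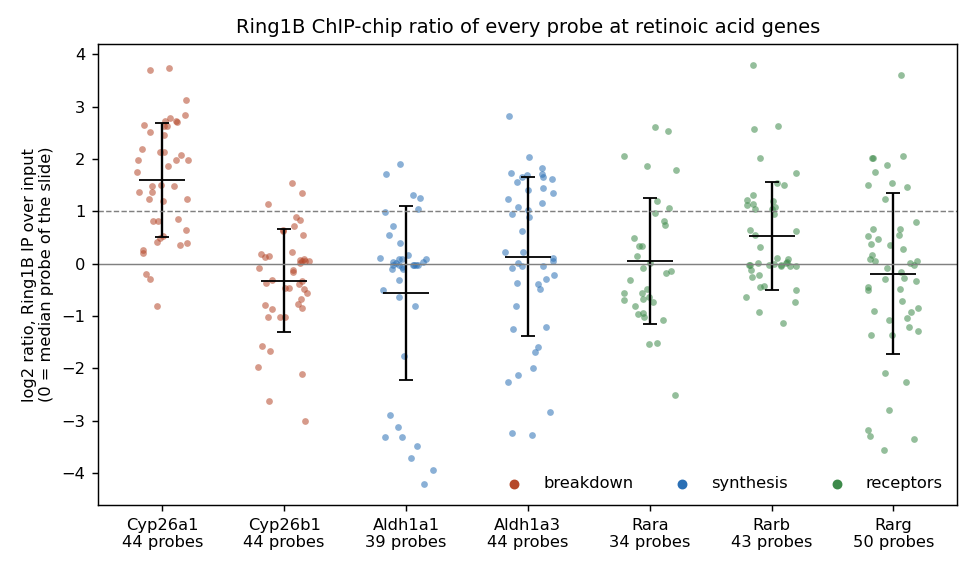
Each point is the log2 ratio of Ring1B immunoprecipitated over input signal of 1 probe, with the slide's median probe at 0, for the 7 measured genes coloured by role; horizontal bars are means and vertical bars SDs over probes. Cyp26a1 is centred at 1.61 with 30 of 44 probes at or above the dashed line at 1, while the means of the other genes lie between -0.56 and 0.53 and their probes spread over both sides of 0.

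Cyp26b1, the related breakdown enzyme known for limb and germ cell development, differed from Cyp26a1. Its 44 probes (chromosome 6, 84620640 to 84628716) ranged from -3.00 through a median of -0.23 to 1.55, and the mean was -0.33 ± 0.98. Only 3 probes were at or above 1 (6.82%, beside 17.7% of all slide 1 probes). At or below -1 were 9 of the 44, beside 20.4% of all slide 1 probes. The upstream mean of -0.31 and the mean inside the gene of -0.37 were alike, and the value within 1000 bp of the start was -0.25 ± 1.00 over 11 probes. No stretch of raised or lowered signal was called. The input was well above background at 38 of 44 probes and the immunoprecipitated signal at 35, so most of these probes were measured in both channels.

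The breakdown pair thus had a median of 0.64 with an SD of 1.37 over the genes, which describes neither of them. The genes lay on different slides, each set to its own median probe. Of the other 64 cytochrome P450 genes on the arrays, 1 reached the threshold (1.56%), and their median was -0.12. That gene was Cyp1b1, which can also oxidise retinol, at 1.12 ± 1.49 over 37 probes. The lowest was Cyp2d10, at -1.27 over 9 probes.

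**Figure D2:**
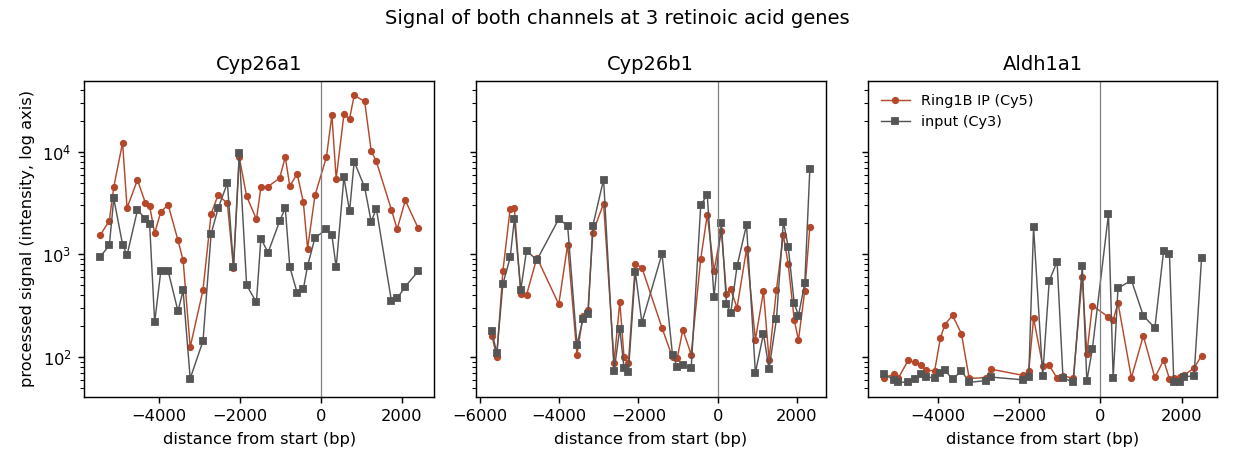
Processed signal of the Ring1B immunoprecipitated (Cy5) and input (Cy3) channels, on a log axis, for each probe of Cyp26a1, Cyp26b1 and Aldh1a1 against its distance from the transcription start in bp. At Cyp26a1 the immunoprecipitated signal lies above the input along most of the gene, at Cyp26b1 the channels follow each other, and at Aldh1a1 both channels lie near the floor at many probes.

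Aldh1a3, a synthesis enzyme active in the embryonic eye and nose, had raised signal around its start and both raised and lowered probes elsewhere. Its 44 probes (chromosome 7, 62282151 to 62290885) ranged from -3.27 through a median of 0.16 to 2.81. The mean over all of them was 0.14 ± 1.52. At or above 1 were 17 probes (38.6%, beside 17.7% of all slide 1 probes). At or below -1 were 10 of the 44, beside 20.4% of all slide 1 probes. Within 1000 bp of the start, however, each of the 10 probes was above 0, from 0.23 to 2.81. There the mean was 1.42 ± 0.69, at rank 223 of the 7819 genes of slide 1, and the other 34 probes averaged -0.24. That outer mean joins high and low probes: 3 probes from -5000 to -4500 bp averaged 1.06, and 2 from 3000 to 3500 bp averaged -2.02.

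A single stretch of 1409 bp, from -796 to 561 bp with 8 probes, averaged 1.53 at Aldh1a3. A lowered stretch of 685 bp near the far end of the tiled part of the gene averaged -1.54 over 4 probes. A mean over the whole tiled region therefore hid the signal at this start. The input at the raised probes was measurable, with a Cy3 signal of 3015 at the probe 118 bp inside the gene and 820 at the one 118 bp upstream. The probe with the highest ratio, at -796 bp, had an input signal of only 82.0.

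Aldh1a1, a synthesis enzyme of the dorsal retina and of many adult tissues, had the lowest mean of the 7. Its 39 probes (chromosome 19, 20297178 to 20305054) ranged from -4.22 through a median of -0.03 to 1.91, and the mean was -0.56 ± 1.66. This gene was the least well measured. Both channels were at the floor value of the software at 14 of the 39 probes (35.9%), and the input was well above background at 20 and the immunoprecipitated signal at 17. Without the probes at the floor in both channels the mean was -0.90, and without those with dim input it was -1.38. These filters lowered the values of all genes too, whose median went from -0.10 to -0.14 and -0.28. The genes at or below -1 rose from 315 to 673 and 1258.

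The low values of Aldh1a1 came from probes with measurable input and little immunoprecipitated DNA. The lowest probe, at 1697 bp, had a Cy3 signal of 1015 and a Cy5 signal of 61.1. The 13 probes inside the gene averaged -1.51 ± 1.90 and the 26 upstream -0.09. Lowered stretches of 783 and 1068 bp averaged -1.98 and -1.52. The 5 probes at or above 1 had low input signals, from 60.2 at the one with the highest ratio (-3635 bp, 1.91) to 119 at the one 198 bp upstream of the start (1.25).

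The synthesis pair had a median of -0.21, with an SD of 0.49, and neither reached 1. Near the start the pair parted, with 1.42 at Aldh1a3 and -0.49 ± 1.83 over 9 probes at Aldh1a1. Of 16 other aldehyde dehydrogenase genes, 0 reached 1 (median -0.13). The highest of them was Aldh18a1, an enzyme of proline synthesis, at 0.24, and the lowest was Aldh1l1, an enzyme of folate metabolism, at -1.27. Aldh1a7, a close relative of Aldh1a1 on the same chromosome that was looked up after the values were seen, stood at -0.13 ± 1.05 over 28 probes.

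Rarb, the receptor gene that retinoic acid induces through the element shown above, had the second-highest mean of the 7, although by the median of the probes Aldh1a3 lay above it. Its 43 probes (chromosome 14, 14387389 to 14395347) ranged from -1.12 through a median of 0.09 to 3.80, with a mean of 0.53 ± 1.03. Of them, 15 were at or above 1 (34.9%, beside 21.7% of all slide 2 probes) and 1 was at or below -1. Within 1000 bp of the start the mean was 1.43 ± 1.03 over 11 probes, at rank 279 of the 7628 genes of slide 2. The remaining 32 probes averaged 0.22.

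The raised probes of Rarb lay on both sides of the start set from the array's probes. The 15 probes inside the gene averaged 0.75 and the 28 upstream 0.41. Further upstream, the probes at -2121, -2235 and -2359 bp gave 1.12, 2.58 and 1.05. A stretch of 778 bp from -856 to -130 bp held 5 probes with a mean of 1.81, and its highest probe, at -532 bp, gave 3.80 from signals of 2720 and 175. A second stretch of 368 bp, from 2024 to 2332 bp, held 3 probes with a mean of 1.69. The signal was low over much of the rest, with a median Cy3 signal of 93.8 and both channels at the floor at 9 of 43 probes. Some probes near the start were dim in input as well. Those at 510, 619 and 798 bp had Cy3 signals of 59.4, 56.8 and 61.2 and ratios of 0.55, 1.22 and 2.63. The probes at -130 and -253 bp from that start were bright, with Cy3 signals of 2003 and 1860 and ratios of 1.31 and 1.74. The second is the probe shown above, which spans -107 to -63 bp from the RefSeq start, just upstream of the response element.

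Rara, the most widely expressed receptor, had a value near the median probe. Its 34 probes (chromosome 11, 99041463 to 99049316) ranged from -2.50 through a median of -0.16 to 2.61, and the mean was 0.05 ± 1.20. The channels were bright, with no probe at the floor in both and a median Cy3 signal of 1843. The mean within 1000 bp of the start was 0.11 ± 1.11 over 10 probes. One raised stretch of 793 bp, from -1591 to -848 bp, averaged 1.37 over 5 probes, and a lowered one of 518 bp averaged -1.42. The raised stretch ended before the start. The nearest upstream probes, at -316 and -154 bp, gave -0.18 and -1.52, and the nearest inside, at 154 bp, gave -0.56.

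Rarg, the receptor of skin, cartilage and early embryo, was tiled in 3 separate stretches of chromosome 15 between 102221095 and 102253242. Its 50 probes ranged from -3.55 through a median of -0.05 to 3.61, and the mean was -0.19 ± 1.54, which became 0.14 with normexp background correction and 0.11 in the deposited series table. The stretches averaged 0.05 (10 probes), -0.19 (37 probes, with the start) and -1.02 (3 probes). Of the 50 probes, 8 carried the joined name of Rarg and LOC432988, a divergent neighbour. The 10 probes within 1000 bp of the start averaged -0.01 ± 0.83. A lowered stretch of 873 bp inside the gene averaged -2.10 over 7 probes, with Cy3 signals of 3820 to 6629 at its lowest 3 probes.

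The receptors had a median of 0.05 with an SD of 0.37 over 3 genes, and 0 of 3 reached 1. By the gene means, the order of the 7 was Cyp26a1, Rarb, Aldh1a3, Rara, Rarg, Cyp26b1 and Aldh1a1. Each gene differed from its neighbour in that order by less than the larger SD of the pair. The widest step, 1.08 between Cyp26a1 and Rarb, stood beside SDs of 1.09 and 1.03. The narrowest, 0.09 between Aldh1a3 and Rara, stood beside 1.52 and 1.20. Since probes are not replicates, these SDs show the spread along each gene and not the error of its mean.

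When probes within 1000 bp of the start alone were used, 3 of the 7 genes reached 1: Cyp26a1 at 2.27, Rarb at 1.43 and Aldh1a3 at 1.42. Of all 15447 genes with at least 3 such probes, 8.09% did. The other 4 stood between -0.49 and 0.11 there. With 1 gene of each role at or above 1, the signal near the start did not sort the genes by role. Raised stretches of any length were found at 4 of the 7 genes, beside 29.4% of all genes, and lowered ones also at 4 of the 7, beside 47%. None of the 7 had a lowered stretch of 2000 bp or more, which 1.15% of all genes had.

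**Figure D3:**
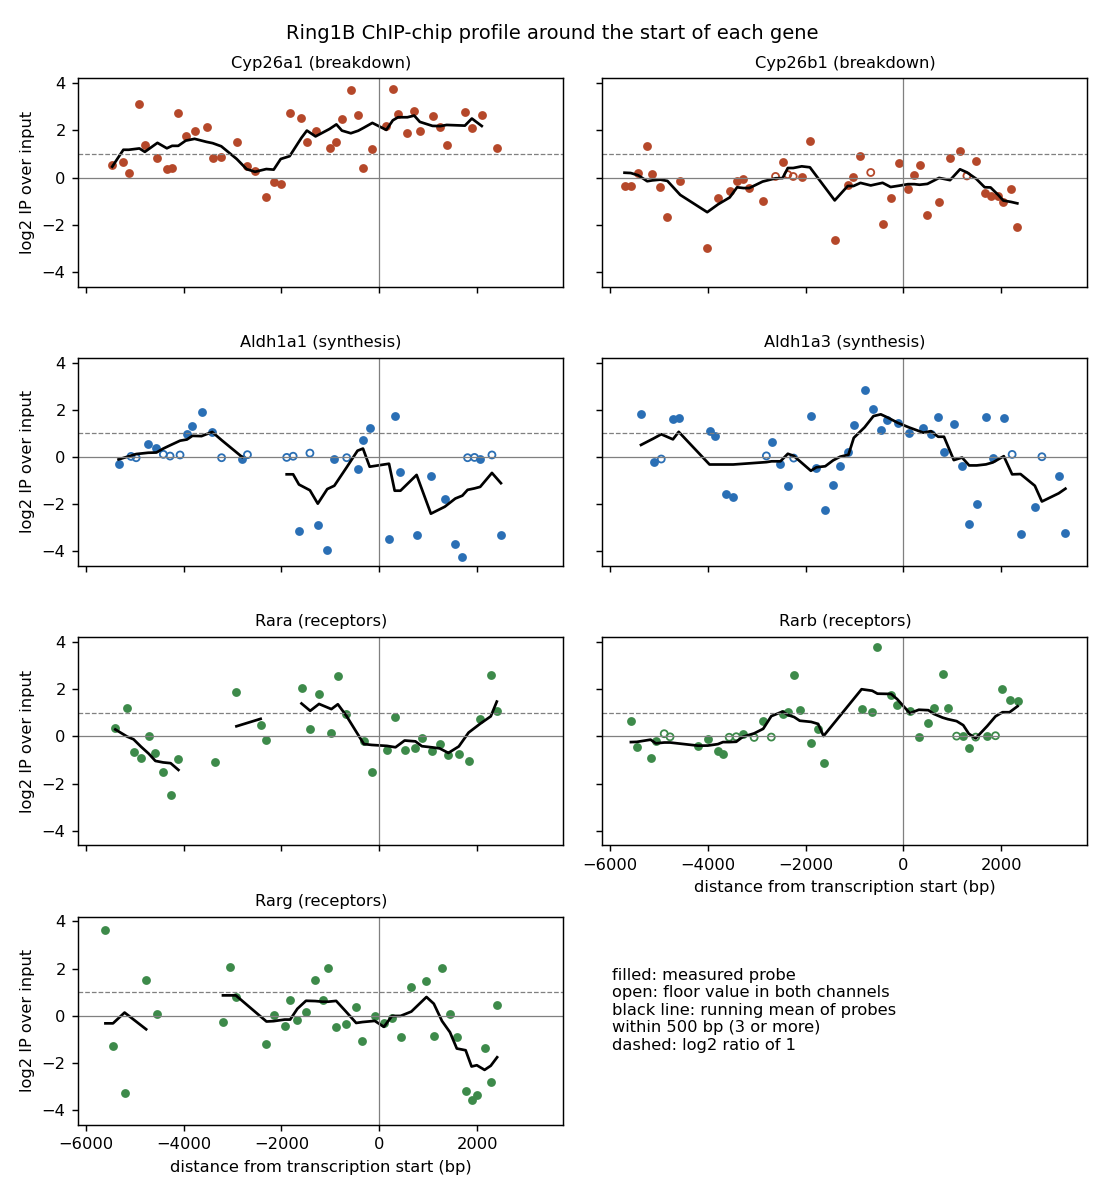
Log2 ratio of immunoprecipitated over input signal of each probe against its distance from the transcription start in bp, 1 panel per gene; filled points are measured probes, open points had the floor value in both channels, and the black line is the running mean of probes within 500 bp. The line lies above 1 (dashed) around the start of Cyp26a1 for 3742 bp, over shorter stretches near the starts of Aldh1a3 and Rarb, and upstream of the start of Rara.

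The genes with a profile most like that of Cyp26a1 were sought among 6033 genes of slide 2, by the root mean square difference of the mean log2 ratio in bins of 500 bp from the start, over at least 10 shared bins. The median difference was 2.21. The closest was Fzd8, a Wnt receptor, with 0.50 over 13 bins and a gene mean of 1.67. Next came the homeobox gene Emx2 with 0.71 (mean 1.46), the forkhead gene Foxb1 with 0.76 (mean 1.58), and the homeobox genes Otp with 0.88 (mean 1.78) and Rax with 0.89 (mean 1.33). These are developmental regulators of the embryonic brain or, for Fzd8, a receptor expressed there. Each carried a raised stretch of its own, from 3794 bp at Foxb1 to 7045 bp at Otp. The measure takes in the level as well as the shape, so it favours genes of a like mean. The raised stretches of these genes also follow in part from that choice.

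The other genes of the retinoid pathway were taken from a list of 60, of which 56 were measured and Rpe65, Rxra, Ncoa3 and Rarres1 were not analysed here. Of the 56, 10 reached 1 (17.9%) and 0 stood at or below -1, and the median was 0.16. These 10 were unevenly placed: 9 were among the known retinoic acid targets, and without the targets 1 of 37 (2.70%) reached 1. The list has no test here, and the counts describe it beside 1.99% of all genes. It was chosen with earlier results of these data known, so its shares here and below are descriptive only.

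Among the 10 genes for binding and transport of retinoids, 0 reached 1 and the median was -0.09. Rbp4, the carrier of retinol in blood, was highest at 0.56, and Rbp3, a retinoid carrier of the eye, was lowest at -0.60. Among the 19 genes of retinol and retinal metabolism, 1 reached 1 and the median was -0.08. That gene was Adh5, an alcohol dehydrogenase better known for formaldehyde detoxification, at 1.26 ± 0.80 over 14 probes. Rdh5, a retinol dehydrogenase of the eye, was lowest at -0.99. These groups had medians close to that of all genes.

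Among the 8 receptor partners and cofactors, 0 reached 1 and the median was -0.03. The corepressor Ncor1 was highest at 0.57 and the partner receptor Rxrb lowest at -0.72. Neither the receptors nor the proteins that work with them had a gene mean at or above 1.

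The known retinoic acid targets had the highest values of the list. Of 19 measured, 9 reached 1 (47.4%), with a median of 0.90. The homeobox gene Meis2, listed on the array under its older name Mrg1, was highest at 2.31 ± 0.86 over 36 probes. Tbx1, a T-box gene of the pharyngeal region, stood at 1.85 ± 0.86, and Hoxb4, a gene of the hindbrain and trunk, at 1.81 ± 0.81. The nuclear receptor genes Nr2f2 and Nr2f1 stood at 1.57 and 1.56.

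Foxa2, a regulator of endoderm and floor plate, stood at 1.13 and the homeobox gene Meis1 at 1.08. Rarres2, which encodes the secreted protein chemerin, was lowest at -0.76. Most of the high targets encode transcription factors, as does Rarb, whereas Cyp26a1 is an enzyme gene. Raised stretches of 2000 bp or more occurred at 12 of 19 targets, at 1 of 10 binding and transport genes, and at 0 of the metabolism and cofactor genes, beside 3.09% of all genes. Cyp26a1 and Rarb are themselves induced by retinoic acid, and their values of 1.61 and 0.53 lay on either side of the targets' median.

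Near the start, 17 of 54 pathway genes with at least 3 such probes reached 1 (31.5%), beside 8.09% of all genes. The targets gave 14 of 18 (77.8%), metabolism 2 of 18, binding and transport 1 of 10 and cofactors 0 of 8. The binding gene was Crabp1, which encodes a retinoic acid-binding protein of the cytoplasm. It is named here after its values were seen: its mean near the start was 1.96, beside 0.52 over all its probes, and it carried a stretch of 2710 bp. As at Rarb and Aldh1a3, its mean was higher near the start than over all its probes.

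**Figure D4:**
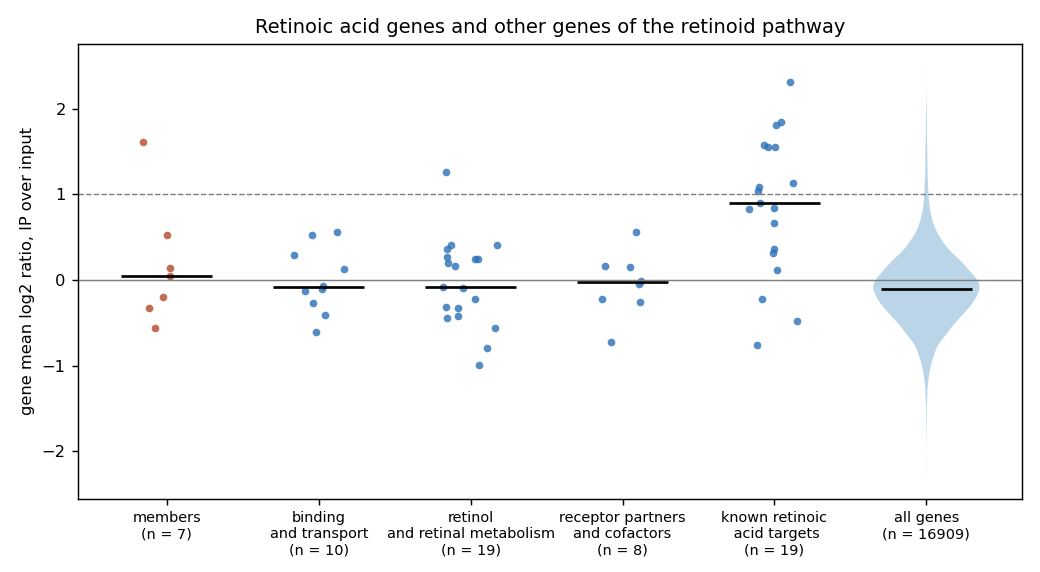
Each point is the mean log2 ratio of immunoprecipitated over input signal of 1 gene, for the 7 retinoic acid genes and 4 groups of other retinoid pathway genes, with black bars at the medians; the violin gives all 16909 genes. The targets, whose median is 0.90, have 9 of 19 genes at or above the dashed line at 1 and lie above the other groups, whose medians are between -0.09 and 0.05.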

How the data were processed

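The deposited array files hold fluorescence intensity values per spot and, per the file headers, come from Agilent Feature Extraction 9.1.3.1. Its processed signals had background subtracted and dyes normalised, and dim spots carry a floor value, per the file headers. The deposited series table holds log2 ratios of the mean signals, not centred (column medians 0.774 and 0.798), which matched the array files to within 5.0e-05.

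The log2 ratio of processed signals, Cy5 over Cy3, was computed for each probe. Control spots and outliers (141 and 17) were left out, and the slides' median probes (0.23 and 0.16) were subtracted. A gene's value was the mean of at least 3 probes carrying its name, alone or in a hyphen-joined name of a divergent promoter. The start was set midway between the last promoter probe and the first probe inside the gene. On slide 1, whose file gives starts, this differed by a median of 51.5 bp over 7897 genes, by 72.75 bp at Cyp26b1 and by 73 bp at Aldh1a3. Genes on slide 2 had no such check. The RefSeq starts can differ from the start set this way, and the Rarb probe at -253 bp spans -107 to -63 bp from the RefSeq start. Python 3.11.15, numpy 2.4.6, pandas 2.3.3, R 4.3.3 and limma 3.58.1 (normexp alone) were used, and the procedure was tested on simulated data. Alternatives changed the background correction, centring, dim probes, probe GC, gene value, window, threshold and stretch settings.

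Named genes were the 9 members, the pathway genes at or above 1 with the highest and lowest of each group, the highest and lowest of the other Cyp and Aldh genes, and the 5 genes most like the highest member. Of the pathway genes this rule takes, 2 are counted but not reported by name here. The members and lists were chosen with earlier results of these data known.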

Additional observations from a re-analysis of the deposited data

How the results depend on the processing

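With no replicates, no setting could be checked against a repeat. Cyp26a1 had the highest value of the 7 genes under the main setting and all 9 alternatives to it that change gene values, from 1.61 to 2.27. Over the same settings Rarb ran from 0.09 to 1.43, Aldh1a3 from -0.09 to 1.42, Rara from -0.16 to 0.39, Rarg from -0.20 to 0.14, Cyp26b1 from -0.41 to -0.09 and Aldh1a1 from -1.38 to -0.03. The number of genes at or above the threshold, 1 of 7, became 3 with probes within 1000 bp of the start and 2 at a threshold of 0.5. The pathway count, 10, became 17 near the start, 17 at 0.5 and 6 at 1.5. For all genes the shares were 8.09%, 7.62% and 0.651%. The Aldh1a median of -0.21 became 0.46 near the start and -0.74 without probes of dim input. The median of all genes, -0.10, stood at 0.01 with normexp, 0.02 in the deposited series table and 0.10 without centring. It stood at -0.14 without probes at the floor in both channels and at -0.28 without probes of dim input. The raised stretch of Rara was 405 bp with a 1000 bp window, 1803 bp with normexp and absent at a running mean of 1.5, and that of Aldh1a3 was 627 bp and 331 bp with the wider window and at 1.5. The Rarb stretch was 1223 bp with the wider window. Signal near background limits Aldh1a1 and Rarb most, at Rarb in its outer parts and at some probes near its start.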
